A study of Homo sapiens with 6 samples.

Results

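The brush border is the carpet of microvilli on the apical face of absorptive epithelium. Each microvillus holds a core of parallel actin filaments that are bundled by villin, plastin 1 and espin, capped at the tip by EPS8 and tied to the membrane by ezrin and by the motor myosin 1A. At the tips, the protocadherins CDHR2 and CDHR5 join neighbouring microvilli, and the scaffold harmonin (USH1C) and the motor myosin 7B hold them to the actin core. The brush border belongs to the intestine rather than to the normal stomach, and villin is widely used as a marker of intestinal differentiation in gastric lesions.

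These genes were examined in AGS, an established human line of gastric adenocarcinoma epithelial cells, transiently transfected either with NC, the control of the study, or with miR-3648 mimics, synthetic copies of a microRNA. Each group held 3 RNA-seq libraries made from total RNA with a stranded kit, and both groups were grown in DMEM with fetal bovine serum. The dose of the mimics, the time from transfection to harvest and the level of miR-3648 in the cells are not stated in the labels. The labels do not say whether libraries of a group came from separate cultures, so every p-value measures the spread between libraries, which may be technical.

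The set was defined by name as VIL1, EZR, ESPN, MYO1A, MYO7B, CDHR2, CDHR5, USH1C, EPS8 and PLS1. Of these 10 genes, 7 had a row in the deposited table of 11187 protein-coding genes used here, and ESPN, MYO7B and CDHR2 had none and were not analysed. All 7 listed genes had a mean of at least 1 FPKM, the minimum set for testing, and were among the 10286 genes tested. FPKM divides fragments by transcript length and by the size of the library, so levels can be compared between genes, but a shift shared by all genes would not show.

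The depth of the libraries is unknown, because the table gives FPKM alone. FPKM summed over listed genes ran from 208274 to 222947 per library. NC replicate 3 stood apart, with a mean Pearson correlation across tested genes of 0.967 with its own group and 0.979 with the mimic group, so results are also given without it where that changes a call. Of 12 markers of gastric and simple epithelium, 7 had a row, while TFF2, TFF3, MUC5AC, MUC6 and GKN1 had none. The summed level of the 7 ran from 771 to 951 FPKM with NC and from 891 to 904 FPKM with mimics. Most of it was KRT19, KRT18, EPCAM and KRT8, with means over the 6 libraries of 280, 223, 192 and 172 FPKM. The means of CLDN4, CDH1 and TFF1 were 3.34, 3.28 and 0.527 FPKM, and TFF1 lay below the minimum for testing. Fibroblast markers (3 of 8 listed) summed to between 4.62 and 5.18 FPKM over the 6 libraries, leukocyte markers (3 of 7) to 6.98 to 8.05 FPKM with NC and 5.69 to 6.10 FPKM with mimics, and the endothelial marker listed (1 of 5) to at most 2.96 FPKM.

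The sequence introduced into the mimic group is shown first, because the members were searched for matches to its seed, the stretch of a microRNA that pairs with messenger RNA. The mature form in RefSeq (GRCh38.p14, chromosome 21, 8987026 to 8987046, plus strand) has 21 bases, and the capitals mark bases 2 to 8.
hsa-miR-3648: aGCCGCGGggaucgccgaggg
A full match to these bases reads CCGCGGC in a transcript (7mer-m8), and a match to bases 2 to 7 followed by A reads CGCGGCA (7mer-A1). None of the 7 listed members had either match in its longest annotated 3′ UTR, a part in which 2.18% of 10993 listed genes had one. VIL1 had none in a 3′ UTR of 3959 bases and EZR none in 1173 bases.

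Matches lay elsewhere in 3 members. They are printed here so that the values of CDHR5, USH1C and EPS8 can be read beside them, with the matched bases in capitals and up to 8 bases on either side from GENCODE release 29.
CDHR5 coding sequence, from base 840: gacggagaCCGCGGCatcaacca
USH1C coding sequence, from base 920: ggcagaggCGCGGCAgcgtgagc
EPS8 5′ UTR, from base 105: aggcggctCCGCGGCtcgcggac
The CDHR5 match is followed by A, so it carries both forms overlapping each other. Of all listed genes, 14.5% had a match in the coding sequence and 15.9% in the 5′ UTR. A match is a stretch of letters and was not tested as a site of binding.

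Villin was the member whose level separated the groups. VIL1 was at 33.2, 34.4 and 30.4 FPKM in NC replicates 1 to 3 and at 46.5, 47.5 and 44.5 FPKM in mimic replicates 1 to 3. Every mimic library lay above every NC library, and within each group the libraries were close together. The means were 32.7 ± 2.03 FPKM with NC and 46.2 ± 1.496 FPKM with mimics (SD, n = 3 each), a ratio of 1.41. On the log2 scale the difference was 0.49 (SE 0.07, 95% interval 0.32 to 0.66). VIL1 had an unadjusted limma p of 0.00027 and an adjusted p of 0.061, so it did not pass the threshold of 0.05 over all tested genes. The villin gene was the sole member with non-overlapping groups, 1 of 7, against 22.2% of all tested genes in either direction and 8.68% with mimic libraries higher. In bulk libraries, a change in the number of cells that express a gene and a change in RNA per cell cannot be told apart.

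The call for VIL1 turned on NC replicate 3, its lowest library. Without that library the limma adjusted p was 0.024 with a log2 fold change of 0.44, in a fit that called 14.8% of all tested genes. Leaving out any of the other 5 libraries gave log2 fold changes of 0.47 to 0.52, none of which passed (limma adjusted p from 0.092 to 0.28). VIL1 (ENSG00000127831) occupies chromosome 2, positions 219283815 to 219318018, plus strand (GRCh37), and its end overlaps USP37, a deubiquitinase gene on the minus strand, over 3045 bases. USP37 was at 2.86 ± 1.03 FPKM with NC and 3.60 ± 0.0175 FPKM with mimics (SD, n = 3 each), and its part in the VIL1 values was not tested. No other member overlapped a listed gene. In the same build, EZR (ENSG00000092820) spans 159186773 to 159240444 of chromosome 6 (minus strand) and PLS1 (ENSG00000120756) spans 142315229 to 142432506 of chromosome 3 (plus strand). USH1C (ENSG00000006611) and CDHR5 (ENSG00000099834) are both on the minus strand of chromosome 11, at 17515442 to 17565963 and 616565 to 626078. EPS8 (ENSG00000151491) and MYO1A (ENSG00000166866) are both on the minus strand of chromosome 12, at 15773092 to 16035263 and 57422301 to 57444982.

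**Figure D1:**
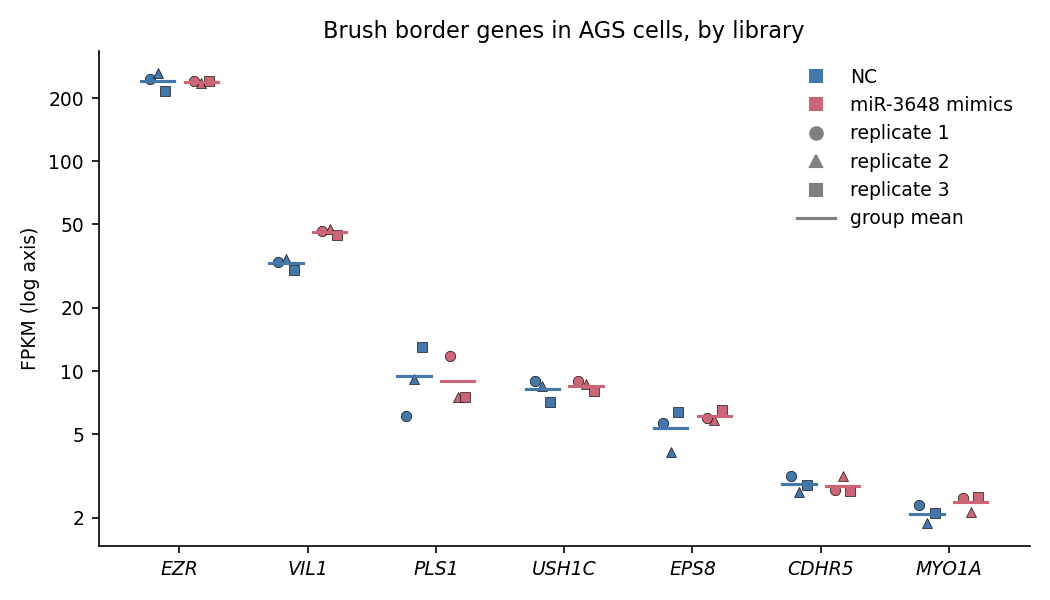
FPKM of the 7 listed brush border genes in each library, on a log axis, ordered by mean level; symbols mark replicate numbers, colours the 2 groups and short lines the group means. The mimic libraries of VIL1, at 44.5 to 47.5 FPKM, lie above its NC libraries, at 30.4 to 34.4 FPKM, and the groups of the other 6 genes overlap.

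Ezrin was the most abundant member by a wide margin. EZR, which encodes the membrane-to-actin linker, was at 248, 263 and 217 FPKM with NC and at 241, 236 and 242 FPKM with mimics. The mimic libraries lay inside the range of the NC libraries. The log2 fold change was -0.01 (95% interval -0.20 to 0.18, limma adjusted p = 0.95). By mean level over the 6 libraries, EZR stood at percentile 99.4 of listed genes and VIL1 at percentile 92.2.

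The actin-bundling and tip proteins were lower. PLS1, the plastin of microvilli, was at 6.14, 9.18 and 13.0 FPKM with NC and at 11.8, 7.55 and 7.50 FPKM with mimics. Its highest and its lowest value were both NC libraries, and mimic replicate 1 stood above the other mimic libraries. The within-group SD of PLS1 on the log2(FPKM + 1) scale was 0.42, percentile 96.0 of tested genes, and the 95% interval of its log2 fold change ran from -0.67 to 0.59. That interval includes the difference seen in VIL1, 0.49, so a change of that size in PLS1 was not detectable here.

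EPS8, the capping and bundling protein of microvillus tips, was at 5.63, 4.10 and 6.38 FPKM with NC and at 5.95, 5.88 and 6.50 FPKM with mimics. The groups overlapped through NC replicate 3, and NC replicate 2 was the lowest of the 6. The log2 fold change was 0.17 (95% interval -0.16 to 0.51, limma adjusted p = 0.58). MYO1A, the motor that links the actin core to the side membrane, was at 2.29, 1.89 and 2.10 FPKM with NC and at 2.49, 2.14 and 2.505 FPKM with mimics. NC replicate 1 lay above mimic replicate 2, so the groups overlapped, and the log2 fold change was 0.13 (95% interval -0.09 to 0.34, limma adjusted p = 0.54).

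Both listed genes of the tip-link complex had group means within 5% of each other. The scaffold gene USH1C was at 8.998, 8.45 and 7.13 FPKM with NC and at 8.97, 8.64 and 8.01 FPKM with mimics, with NC replicate 3 the lowest of all. Its ratio of means was 1.04 and its log2 fold change 0.06 (95% interval -0.18 to 0.30, limma adjusted p = 0.80). The protocadherin gene CDHR5 was at 3.16, 2.66 and 2.87 FPKM with NC and at 2.70, 3.17 and 2.68 FPKM with mimics, with the highest and the lowest values split between the groups. The ratio of means of CDHR5 was 0.984 and its log2 fold change -0.02 (95% interval -0.24 to 0.20, limma adjusted p = 0.93). The seed matches printed above lie in the coding sequences of these genes. Neither gene was called lower, a call made for only 0.175% of all tested genes, so its absence says nothing of the matches.

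In all, 0 of the 7 members passed the limma test after Benjamini-Hochberg adjustment, where 0.408% of all tested genes did (42 genes, of which 24, or 0.233%, were higher in mimic libraries and 18, or 0.175%, lower). At an unadjusted p under 0.05 the count was 1, VIL1, against 14.6% of all tested genes. The members had 4 positive and 3 negative log2 fold changes with a median of 0.06, and all tested genes had a median of -0.0046.

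The order of mean levels was EZR, VIL1, PLS1, USH1C, EPS8, CDHR5 and MYO1A. EZR lay 6.11 times above VIL1, and VIL1 4.29 times above PLS1, both in 6 of 6 libraries and without overlap of their ranges. PLS1 and USH1C were the neighbours without a steady order, since PLS1 was higher in 3 of 6 libraries and their ranges overlapped. USH1C lay above EPS8, EPS8 above CDHR5 and CDHR5 above MYO1A in 6 of 6 libraries. The ratios of these means were 1.46, 1.997 and 1.29. Agreement between libraries does not check the order of genes, since a measurement bias of a gene can be shared by all libraries. Such bias was not tested.

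The make-up of the set moved with villin. Of the FPKM summed over the 7 genes, VIL1 took 10.8%, 10.6% and 10.9% in the NC libraries and 14.6%, 15.3% and 14.2% in the mimic libraries. EZR took 79.9 ± 1.86% in NC and 76.2 ± 0.886% in mimic libraries (SD, n = 3 each), a difference of -3.71 percentage points. The exact two-sided permutation p of that difference was 0.1, the smallest that 3 against 3 can give. Mean EZR was 242 FPKM with NC and 240 FPKM with mimics, so its share is not a result separate from the VIL1 difference. The sum itself was 303 ± 22.7 FPKM with NC and 315 ± 4.22 FPKM with mimics (SD, n = 3; exact two-sided permutation p = 0.6). VIL1 expressed as a percentage of EZR was 13.4, 13.1 and 14.1 in NC and 19.3, 20.1 and 18.4 in mimic libraries. The groups of that ratio did not overlap, but it uses the same VIL1 values and is not separate support for a difference. NC replicate 3 was the highest of the NC libraries in the ratio and the lowest in both VIL1 and EZR FPKM.

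**Figure D2:**
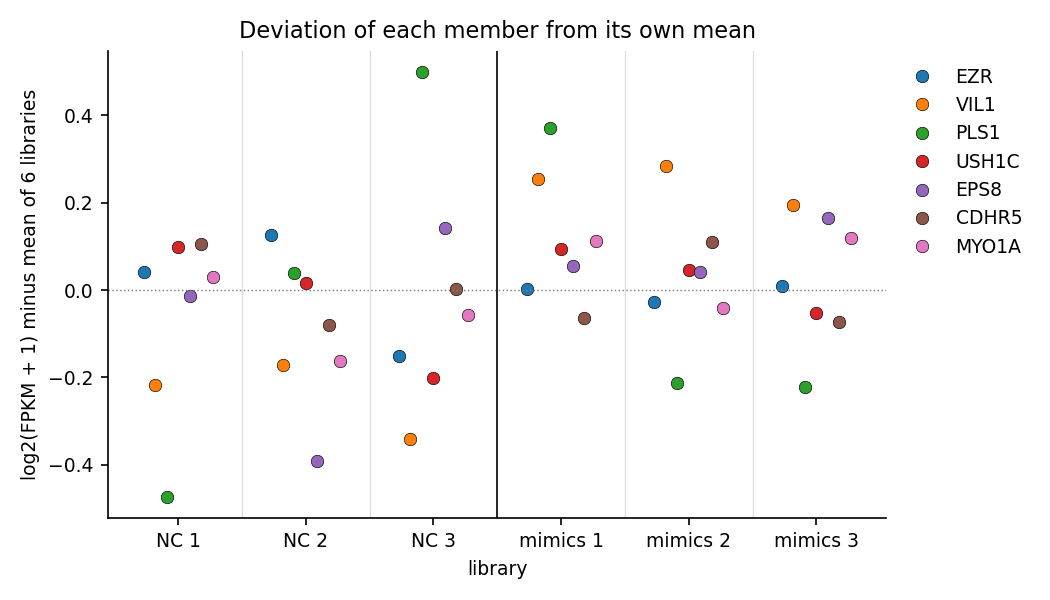
Each member's log2(FPKM + 1) in each library minus its mean over the 6 libraries, coloured by gene. VIL1 lies below 0 in the 3 NC libraries and above 0 in the 3 mimic libraries, while PLS1 spans the widest range and reaches its extremes in NC replicates 1 and 3.

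NC replicate 3 was the highest or the lowest of the NC libraries in 5 of the 7 members, lowest in EZR, VIL1 and USH1C and highest in PLS1 and EPS8. It held an end position in 82.3% of all tested genes. Its deviation from the other NC libraries ran against transcript GC content across 10211 tested genes (Spearman's rho -0.71, across genes, which are not independent replicates), and so did the log2 fold change (rho -0.50). Among the members, transcript GC content was lowest in PLS1, at 36.1%, followed by EPS8 at 42.7% and VIL1 at 44.4%, and highest in CDHR5, at 64.5%.

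The VIL1 difference was smaller, and still positive, with the GC trend removed. The GC content used for VIL1 is that of a single annotated transcript of 6531 bases. Which transcript the cells express was not tested. The 828 tested genes within 1 percentage point of the GC content of VIL1 had a median log2 fold change of 0.04, with 5th and 95th percentiles of -0.22 and 0.32, against 0.49 for VIL1. With a smooth GC curve removed from each library, VIL1 differed by 0.44 log2 units (limma adjusted p = 0.072), and CDHR5 moved from -0.02 to 0.13 (limma adjusted p = 0.57). With the GC curve removed and NC replicate 3 left out, VIL1 differed by 0.35 log2 units and did not pass (limma adjusted p = 0.067).

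**Figure D3:**
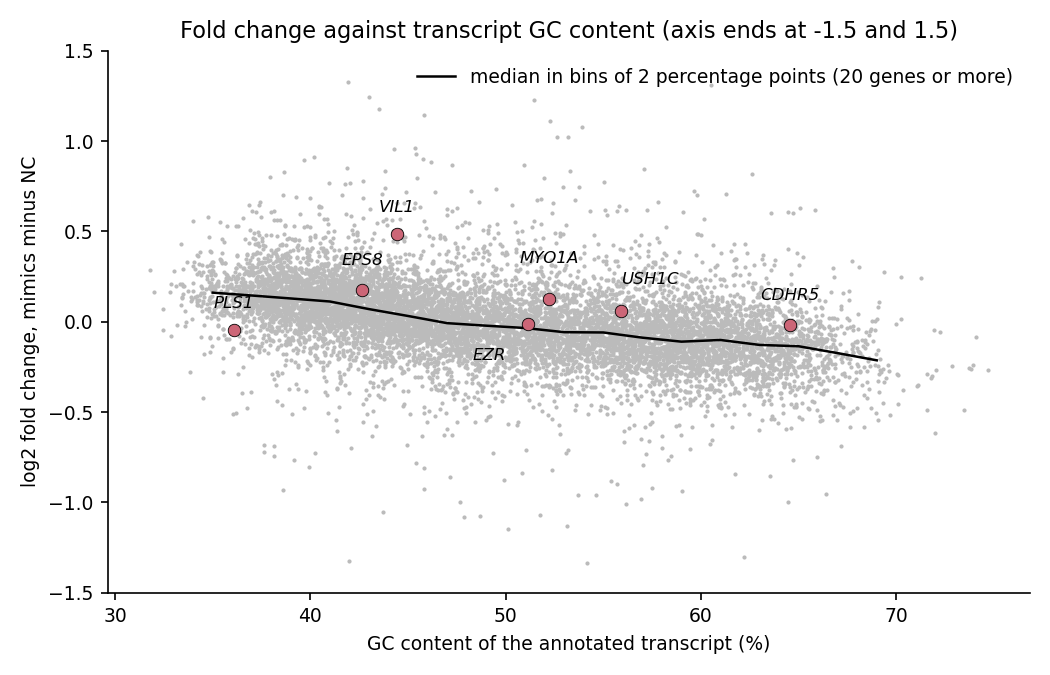
Log2 fold change (mimics minus NC) of each tested gene, in grey, against the GC content of its annotated transcript, with the 7 members in red and the median over bins of GC content as a line. The line falls with GC content, VIL1 lies above it at 0.49, and EZR lies close to it.

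Each member was then set beside its paralogs, on the FPKM scale, as a description without a test. Villin belongs to the gelsolin superfamily of actin-severing and capping proteins. VIL1 made up 60.4% to 62.5% of the FPKM of VIL1, GSN, SVIL and VILL together in NC and 71.2% to 71.7% in mimic libraries. CAPG, another gene of this superfamily, was not in that sum and had a mean of 25.2 FPKM over the 6 libraries. The shares of VIL1 are therefore not shares of the whole superfamily. GSN, gelsolin itself, was at 12.1 ± 1.87 FPKM with NC and 9.80 ± 0.369 FPKM with mimics (SD, n = 3; limma adjusted p = 0.35), and SVIL, supervillin, ran from 7.35 to 8.09 FPKM with NC and from 7.69 to 8.75 FPKM with mimics. VILL, the villin-like gene, lay below the minimum for testing at 0.531 to 0.603 FPKM with NC and 0.274 to 0.439 FPKM with mimics, and AVIL had no row.

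Of the ezrin family genes in the table, EZR was the one with the most RNA. EZR made up 81.9% of the summed FPKM of EZR and MSN in each of the 3 NC libraries, with a spread from 81.85% to 81.91%, and 79.8% to 80.3% in mimic libraries. MSN, moesin, was at 54.7, 58.3 and 48.0 FPKM with NC and at 59.8, 59.7 and 59.4 FPKM with mimics, without overlap of the groups (log2 fold change 0.16, limma adjusted p = 0.41). Radixin, RDX, had no row.

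The other members were minor genes of their families. PLS1 made up 14.1% to 21.6% of the plastin FPKM over the 6 libraries and PLS3, the plastin of many solid tissues, 77.8% to 85.1%, while LCP1, the leukocyte plastin, did not exceed 0.606 FPKM. EPS8 held 7.77% to 13.3% of its family, behind EPS8L2 at 50.9% to 56.4% and EPS8L3 at 30.8% to 33.4%. MYO1A held 3.03% to 4.91% of the FPKM of the class I myosins MYO1A, MYO1C, MYO1D and MYO1E, where MYO1C was the most abundant in every library at 48.0% to 55.8%.

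**Figure D4:**
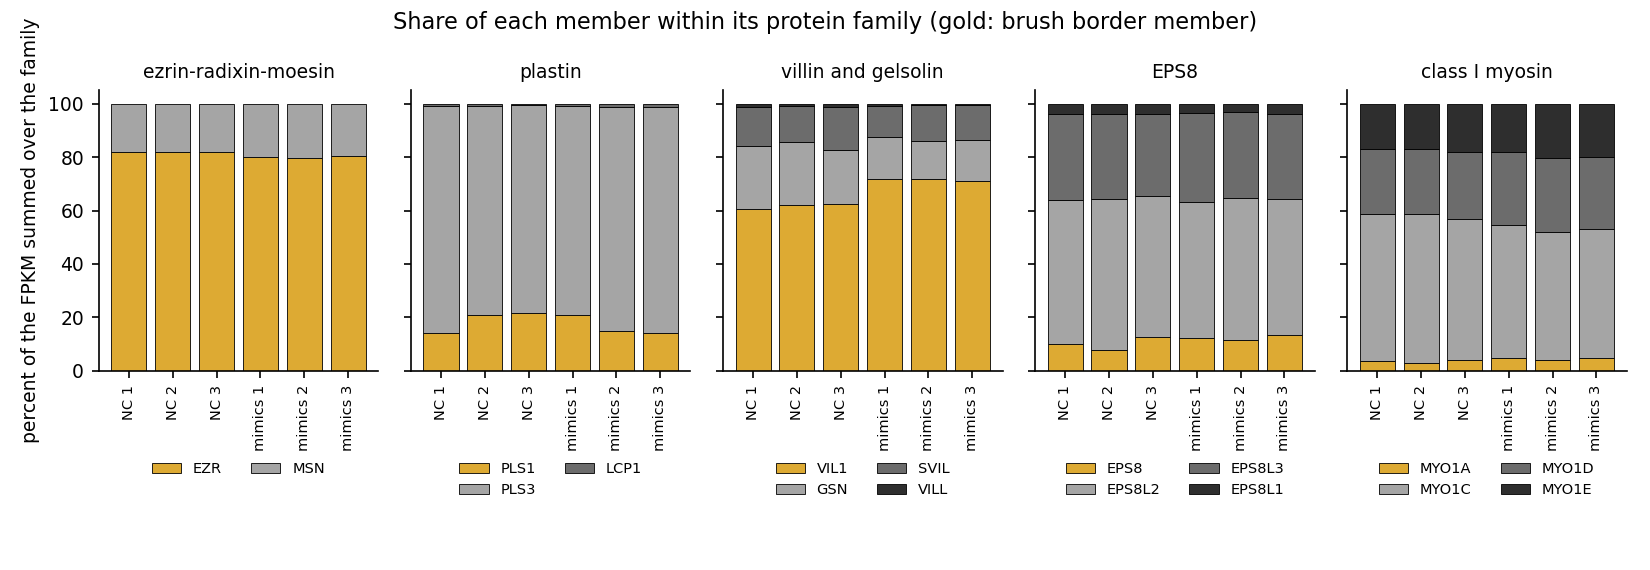
Share of each gene in the FPKM summed over the genes drawn for its protein family, in percent, for each of the 6 libraries. Gold marks the brush border member. A set need not hold the whole family, and that of VIL1 leaves out CAPG. The gold share of VIL1 is 60.4% to 62.5% in NC and 71.2% to 71.7% in mimic libraries. That of EZR is 81.85% to 81.91% in NC and 79.8% to 80.3% in mimic libraries.

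Other genes of microvilli and of the apical pole were examined as 4 lists, beside the 0.408% of all tested genes that passed. Among 19 tested genes of core actin, tips and membrane linkers, 1 rose and none fell. The gene that rose was ACTG1, gamma-actin, the filament protein of the core, with 146 ± 17.4 FPKM in NC libraries and 231 ± 4.71 FPKM in mimic libraries (limma adjusted p = 0.043, log2 fold change 0.66). The near-identical ACTB and processed pseudogenes can share reads with ACTG1, and ACTB was at 684 ± 103 FPKM with NC and 637 ± 25.7 FPKM with mimics. The call of ACTG1 was lost without NC replicate 1 or without any mimic replicate (limma adjusted p from 0.15 to 0.22), and when libraries were scaled to the same median (0.074) or the intensity trend was dropped (0.066). The list had 8 positive and 11 negative log2 fold changes and a median of -0.07.

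The genes of that list with the next smallest p all had lower means in mimic libraries, and none passed the test. SLC9A3R2, a PDZ scaffold that binds ezrin, was at 4.93 ± 0.941 FPKM with NC and 3.78 ± 0.168 FPKM with mimics (limma adjusted p = 0.35). EPS8L2, a paralog of EPS8, was at 29.1 ± 2.03 and 25.6 ± 1.42 FPKM (limma adjusted p = 0.37). GSN is given above. The list had a median GC content of 57.8%, against 49.1% for all tested genes. With the GC curve removed, the log2 fold change moved from -0.30 to -0.13 in SLC9A3R2, from -0.18 to -0.03 in EPS8L2 and from -0.27 to -0.17 in GSN.

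Among 10 tested partners of the tip-link complex and apical myosins, none passed in either direction, at a median log2 fold change of -0.06. MYO10, the motor of filopodial tips, was at 17.3, 16.3 and 15.6 FPKM with NC and at 12.3, 12.8 and 11.7 FPKM with mimics (log2 fold change -0.39, limma adjusted p = 0.13). All 3 mimic libraries lay below all NC libraries, and MYO10 passed with the GC curve removed (limma adjusted p = 0.045) or without NC replicate 3 (0.027), but not with both changes together (0.061). Over all alternatives its limma adjusted p ran from 0.027 to 0.43. MYO1C, a class I myosin of the plasma membrane, was at 32.4 ± 4.30 and 25.4 ± 0.798 FPKM (limma adjusted p = 0.25). MYH14, a nonmuscle myosin II heavy chain, was at 23.4 ± 3.84 and 18.2 ± 1.86 FPKM (limma adjusted p = 0.32). With the GC curve removed, the log2 fold change moved from -0.33 to -0.24 in MYO1C and from -0.34 to -0.20 in MYH14.
CALML4, a light chain that binds myosin 7B in the tip-link complex, was at 1.82, 1.45 and 2.02 FPKM with NC and at 2.12, 2.18 and 2.20 FPKM with mimics. The CALML4 groups did not overlap, and it did not pass (log2 fold change 0.20, limma adjusted p = 0.39). ANKS4B, the scaffold of the complex that binds harmonin, had no row.

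Among 20 tested polarity kinase and apical traffic genes, none passed, at a median log2 fold change of -0.0089. STK11, which encodes the polarity kinase LKB1, was at 3.62 ± 0.492 FPKM with NC and 2.74 ± 0.324 FPKM with mimics (SD, n = 3; limma adjusted p = 0.29), without overlap of the groups. PRKCZ, an atypical protein kinase C of the apical polarity complex, was at 4.60 ± 0.502 and 3.58 ± 0.177 FPKM (limma adjusted p = 0.27). RAB11FIP1, an effector of the recycling GTPase RAB11, was at 16.4 ± 1.08 and 14.6 ± 0.289 FPKM (limma adjusted p = 0.39). The groups of PRKCZ and RAB11FIP1 did not overlap either, as in 22.2% of all tested genes. With the GC curve removed, the log2 fold change of STK11 moved from -0.31 to -0.17. That of PRKCZ moved from -0.29 to -0.20 and that of RAB11FIP1 from -0.16 to -0.13. CAB39, a scaffold of the LKB1 complex, was at 6.79, 5.87 and 7.39 FPKM with NC and at 19.1, 8.79 and 6.84 FPKM with mimics, so the size of its difference rested on mimic replicate 1. The log2 fold change of CAB39 was 0.59 with that library and 0.19 without it, and it passed in neither fit (limma adjusted p = 0.42 and 0.64).

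The enzymes and surface proteins of the brush border were the least represented, with 10 of 35 listed and 9 tested. None passed, at a median log2 fold change of -0.10, and the groups of 5 of the 9 did not overlap, 1 with mimic libraries higher and 4 lower, where 8.68% and 13.5% of all tested genes did so. Median GC content was 61.6% in this list, against 49.1% for all tested genes, and log2 fold changes fell with GC content. The part of GC content in this median and these counts was not tested. In the core and polarity lists the groups of 5 of 19 and 4 of 20 genes did not overlap, against 22.2% of all tested genes. Among the tip-link partners and apical myosins, the groups of 3 of 10 genes did not overlap, against the same 22.2%. An unadjusted limma p under 0.05 was reached by 1 of 19 core, 2 of 20 polarity and 4 of 9 surface genes, against 14.6% of all tested genes. Among the tip-link partners and apical myosins, 3 of 10 reached it, the myosin genes MYO10, MYO1C and MYH14, against the same 14.6%. MUC13, a membrane mucin of the apical surface, was at 52.7, 52.9 and 52.5 FPKM with NC and at 66.4, 63.4 and 62.7 FPKM with mimics (log2 fold change 0.28, limma adjusted p = 0.14). ALPPL2, a placental-type alkaline phosphatase, was at 10.5, 10.0 and 7.92 FPKM with NC and at 6.32, 6.12 and 6.43 FPKM with mimics (log2 fold change -0.51, limma adjusted p = 0.15). ALPPL2 passed with the GC curve removed (limma adjusted p = 0.049) or without NC replicate 3 (0.018), but not with both changes together (0.052). Over all alternatives the limma adjusted p of ALPPL2 ran from 0.018 to 0.45, and its reads can be shared with the close paralogs ALPP and ALPI. CEACAM1, an adhesion protein of the apical surface, was at 11.5 ± 1.35 and 8.98 ± 0.393 FPKM, and LGALS4, a galectin of intestinal epithelium, at 3.66 ± 0.292 and 2.69 ± 0.622 FPKM (limma adjusted p = 0.24 and 0.31).

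**Figure D5:**
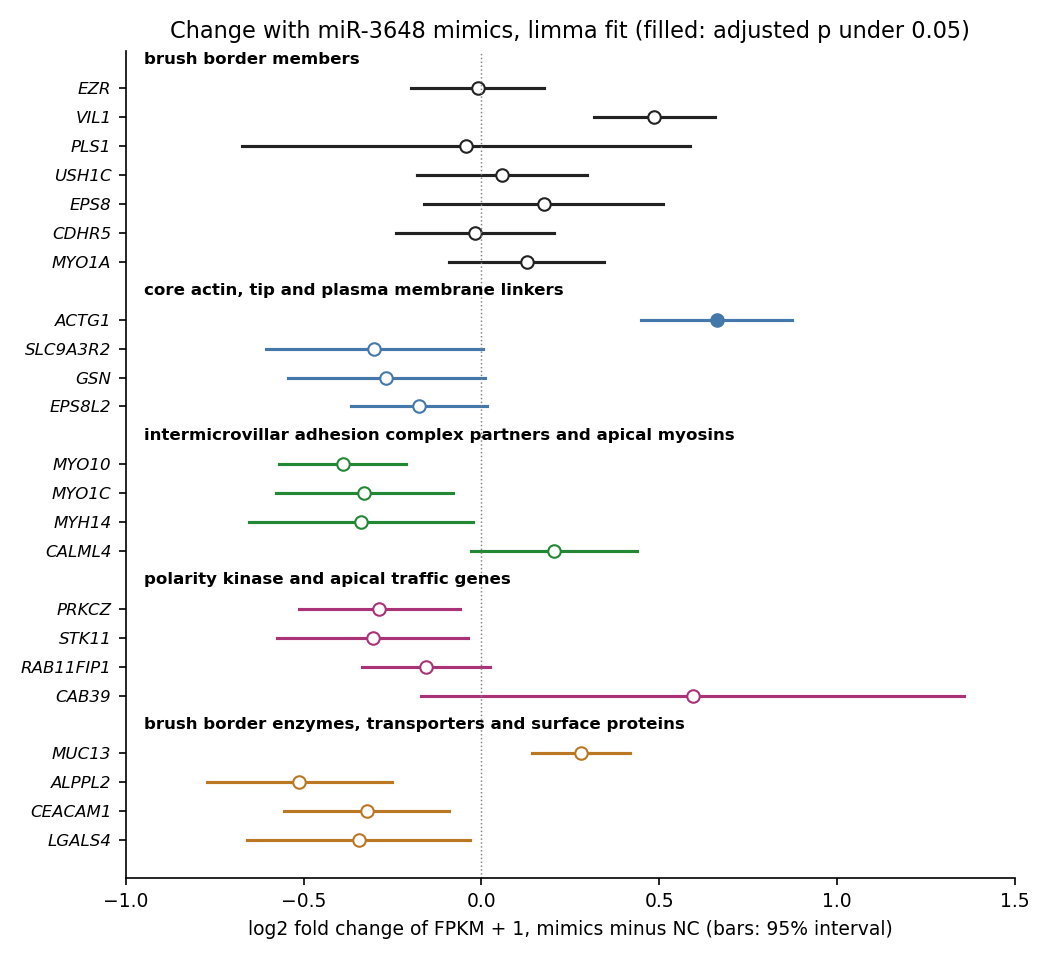
Log2 fold change of FPKM + 1 (mimics minus NC) from the limma fit, with 95% intervals, for the 7 members and for the genes named from the 4 further lists; filled points passed the adjusted threshold of 0.05. ACTG1, at 0.66, is the filled point, and VIL1, at 0.49, has an interval from 0.32 to 0.66.

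Without NC replicate 3, where 14.8% of all tested genes were called, 2 of 19 core and linker genes were higher (PLS3 and ACTG1) and 3 lower (SLC9A3R1, SLC9A3R2 and GSN). In the same fit MYO10, MYO1C and MYH14 were lower, VAMP7 and MUC13 higher, and PRKCZ, CEACAM1 and ALPPL2 lower.

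Across the 6 libraries, genes whose log2(FPKM + 1) closely followed that of VIL1, among 4023 tested with a mean of at least 10 FPKM, were MYL9 (Pearson's r 0.991), ACTG1 (0.985), GANAB (0.985) and YWHAG (0.984). They encode a myosin light chain, gamma-actin, an endoplasmic reticulum glucosidase subunit and a 14-3-3 protein. Each had a higher mean in mimic libraries, with log2 fold changes from 0.12 for YWHAG to 1.31 for MYL9. Genes close to EZR in the same measure were TRIP13 (0.995), VCP (0.992), FKBP4 (0.991) and CDKN1A (0.986), whose log2 fold changes lay between -0.03 and -0.0037. These values are descriptions over 6 libraries that share a group structure and were picked as the highest of many.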

How the data were processed

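RNA-seq of 6 AGS libraries, 3 with NC and 3 with miR-3648 mimics, was used. The authors deposited FPKM for protein-coding genes in 1 table, per the file headers; the submitters' processing notes list StringTie 1.3.3, cutadapt and GRCh37. No aligner, annotation release or strand setting is given in the sources used. Each listed gene reached at least 0.527 FPKM in some library. Whole reads could not be recovered from low values (no more than 3 of 312 low genes shared a ratio between NC replicates 1 and 2 to 4 digits), so no count test was run.

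Groups and replicate numbers came from the titles. Values were taken as log2(FPKM + 1), tested where the mean was at least 1 FPKM (901 genes removed), with limma 3.58.1 in R 4.3.3, an intensity trend, two-sided, and Benjamini-Hochberg adjustment over 10286 genes at 0.05. On this scale a fold change understates the change of low genes. On simulated libraries of 10286 genes the fit called 93 of 100 genes shifted by 1 log2 unit, 40 of 100 shifted by 0.5, and 3 of 10086 with no shift. The simulation drew independent normal errors with the fitted variances and shifted genes of higher mean level only. It held no outlying library and no GC trend, so these counts need not hold for the real libraries. Single values used an exact permutation test over 20 assignments. GC content and seed matches came from GENCODE release 29 (GRCh38), matched by Ensembl identifier, using the transcript with the longest coding sequence for GC content (99.3% of tested genes); coordinates are GRCh37 unless stated. Named genes were the members, up to 4 of smallest p in each further list with every called gene, and the 5 genes most correlated with VIL1 and with EZR, of which 4 each are given and the others are not reported here. Members and lists were chosen with earlier results of these data known. Alternatives were other pseudocounts, filters, scalings, priors, a GC correction, a replicate block and leaving out each library.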

Additional observations from a re-analysis of the deposited data

How the results depend on the processing

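Over 18 alternatives, VIL1 kept a positive log2 fold change (0.35 to 0.52) and passed in 1, without NC replicate 3; its limma adjusted p ran from 0.024 to 0.28. EPS8 and MYO1A stayed positive and never passed, but EPS8 fell to 0.0228 without NC replicate 2 and reached 0.289 without NC replicate 3, and MYO1A fell to 0.0777 without NC replicate 2. Members near 0 changed sign: EZR was at 0.0156 with quantile normalization and at 0.022 with GC correction, alone or with the replicate block, CDHR5 at 0.13 in both GC fits and at 0.20 with GC correction without NC replicate 3, an alternative chosen after the data were seen. Leaving out a library in turn gave ranges of -0.0895 to 0.0493 for EZR, -0.0771 to 0.0301 for CDHR5, -0.29 to 0.19 for PLS1, -0.0284 to 0.12 for USH1C and 0.44 to 0.52 for VIL1. It gave 0 to 1 members called, 8 to 1527 genes called and a difference in the EZR share of -4.77 to -3.03 percentage points. Of all tested genes, 42 were called in the main setting, 112 with GC correction, 122 with GC correction without NC replicate 3, 11 with the replicate block and 12 with the replicate block and GC correction; the cause was not tested. Deviations of same-numbered libraries correlated at -0.04 to 0.07, so the numbers were not taken to pair libraries; under the replicate block VIL1 had a log2 fold change of 0.49 and a limma adjusted p of 0.16. ACTG1, the gene called in the further lists, was not called under the replicate block (limma adjusted p 0.13) or under the block with GC correction (0.056), nor were MYO10 (0.25 and 0.17) and ALPPL2 (0.25 and 0.18). The filter at a mean of 5 FPKM left out CDHR5 and MYO1A. No member lay below the main filter, so the planned test for such members was not run. Unknown depth limits what can be said of genes near 1 FPKM.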
